A study of Mus musculus with 8 samples.

Results

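The genes described here are 34 targets of the hypoxia-inducible factors that act outside glycolysis, taken as a fixed list of names from a table of 55450 mouse genes. The list was given as names, with earlier results of these data known, so the counts below are descriptions of it. It covers secreted and signalling proteins, mitochondrial proteins, enzymes and receptors of the extracellular matrix, chromatin and transcription factors, surface carbonic anhydrases, enzymes of glycogen and lipid storage, and 2 further genes, Selenbp1 and Narf. Of the 34, 33 passed the filter on low counts and were tested among 15975 genes. Car12 did not pass, with counts of 0 and 0 in the culture CD71- libraries, 0 and 1 in culture CD71+, 0 and 1 in tumour CD71- and 2 and 2 in tumour CD71+.

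RNA was sequenced from 8 libraries of mouse neutrophils, the short-lived phagocytes of the innate immune system, in 4 groups of 2 libraries. The culture groups hold neutrophils generated in vitro from naive bone marrow, and the tumour groups hold neutrophils taken from brain tumours of SB28, a mouse glioma cell line. Within each origin, cells were sorted by flow cytometry as CD71- or CD71+, CD71 being the transferrin receptor that carries iron into cells. The labels give no strain, genotype, age or culture time, no oxygen level for the cultures, and do not say whether each replicate had its own animal or culture. The p-values therefore cover only how far these libraries spread, which may be technical.

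Hypoxia-inducible factors are transcription factors made of an oxygen-regulated alpha subunit (Hif1a, Epas1 or Hif3a) and a stable partner (Arnt). With oxygen present, prolyl hydroxylases of the Egln family mark the alpha subunit for destruction through Vhl. With little oxygen the alpha subunit persists and binds a short DNA core, ACGTG or GCGTG, near genes for glucose use, vessel growth, mitochondrial turnover, matrix modification, acid balance and energy storage. In neutrophils this pathway is known for sustaining glycolysis, survival and antimicrobial function in poorly oxygenated tissue.

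The cores were searched on both strands of RefSeq promoter windows on GRCm38.p6, from 250 bases before to 50 bases after a gene's start. On the opposite strand they read CACGT and CACGC, and CACGTG holds ACGTG on both strands. A window was found for 25 of the 34 genes, and 20 of the 25 first windows (80%) held at least 1 core. Among the first windows of all 27025 genes in that table, 43.8% held one. ACGTG was in 13 of the 25 windows, against 19.7% of all, and GCGTG in 17 of the 25, against 32.5% of all. The first windows of Plaur, Gys1, Gbe1, Mxi1 and Car12 held neither core. The 5 sequences below belong to members with a core before the start that were called in the most comparisons. Ties were settled by the largest absolute log2 fold change, which placed Selenbp1 before other members called as often. Each sequence is the 250 bases before the start, read 5′ to 3′ on the gene's strand, with the cores in capitals. A match describes the letters only and is no evidence of binding.
Ankrd37 (chr8:45999851-46000100, minus strand): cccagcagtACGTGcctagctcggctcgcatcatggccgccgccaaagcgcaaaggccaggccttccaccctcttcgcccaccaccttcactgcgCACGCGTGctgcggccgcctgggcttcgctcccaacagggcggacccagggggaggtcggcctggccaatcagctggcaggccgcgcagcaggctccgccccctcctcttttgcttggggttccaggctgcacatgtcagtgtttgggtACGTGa
Rora (chr9:68653536-68653785, plus strand): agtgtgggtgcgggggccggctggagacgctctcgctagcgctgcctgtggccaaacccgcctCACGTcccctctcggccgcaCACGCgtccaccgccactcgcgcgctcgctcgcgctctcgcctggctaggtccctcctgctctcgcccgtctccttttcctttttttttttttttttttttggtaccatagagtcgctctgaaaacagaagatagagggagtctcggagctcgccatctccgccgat
Narf (chr11:121236986-121237235, plus strand): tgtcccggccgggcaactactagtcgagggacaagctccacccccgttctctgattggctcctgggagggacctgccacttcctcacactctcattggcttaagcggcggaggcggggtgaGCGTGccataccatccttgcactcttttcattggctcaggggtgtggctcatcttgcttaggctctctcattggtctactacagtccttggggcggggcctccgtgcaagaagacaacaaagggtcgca
Kdm3a (chr6:71632918-71633167, minus strand): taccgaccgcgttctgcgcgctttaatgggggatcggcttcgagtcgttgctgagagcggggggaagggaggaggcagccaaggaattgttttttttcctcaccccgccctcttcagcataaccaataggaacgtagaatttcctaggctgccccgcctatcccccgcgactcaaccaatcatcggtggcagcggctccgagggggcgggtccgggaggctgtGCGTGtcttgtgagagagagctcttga
Selenbp1 (chr3:94932833-94933082, plus strand): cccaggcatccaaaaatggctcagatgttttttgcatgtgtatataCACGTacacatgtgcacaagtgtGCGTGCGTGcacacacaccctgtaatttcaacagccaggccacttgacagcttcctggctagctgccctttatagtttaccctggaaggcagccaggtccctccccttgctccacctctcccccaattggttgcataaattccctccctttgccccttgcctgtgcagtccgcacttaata
Ankrd37 carries 4 cores in this stretch, of which those at positions 96 and 99 overlap, counted from 1 at the 5′ end. Rora carries 2, at positions 64 and 84, and Selenbp1 carries 3, of which those at positions 70 and 74 overlap. Narf and Kdm3a carry 1 each, at positions 122 and 224.

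The libraries held 9598959 to 22615813 counts, and the 34 genes took 0.425% to 0.797% of them. Defining neutrophil genes were present in all 8 libraries, including S100a8 at 1081 and 1566 CPM (counts scaled to TMM-adjusted library size) in culture CD71- and 1024 and 1296 CPM in tumour CD71-. The transcript of the sort marker, Tfrc, did not follow the labels. Among tumour libraries it stood at 187 and 145 CPM under the CD71- label and at 103 and 108 CPM under the CD71+ label, a fall of 1.57-fold (adjusted p = 0.0134). In culture it was at 131 and 94.4 CPM and 116 and 115 CPM (adjusted p = 0.94). CD71- and CD71+ therefore stand for the labels throughout, and surface protein was not measured here. Markers of other cells moved with the label: summed over 10 macrophage genes the level was 457 to 475 CPM in tumour CD71- and 2502 to 2931 CPM in tumour CD71+, and in culture 594 to 635 CPM and 831 to 937 CPM. Of the 9 macrophage genes tested, 9 rose with the label in the tumour and 7 in culture, and the 8 microglial genes went from 92.0 to 123 CPM up to 835 to 1260 CPM in the tumour. Of the glioma and neural genes, 4 of 6 tested rose with the label in the tumour and 0 fell (3 and 1 in DESeq2). Of 7 endothelial and stromal genes tested, 4 rose and 1 fell (3 and 1 in DESeq2). Over all genes, 26.2% rose and 17.3% fell with the label in the tumour, and 7.88% rose and 8.36% fell in culture. The sums overlapped between the tumour labels. Glioma and neural genes summed to 132 to 143 CPM in CD71- and 126 to 194 CPM in CD71+. Endothelial and stromal genes summed to 149 to 194 CPM and 176 to 247 CPM in the same order. The sum of 20 mature neutrophil genes went the other way, from 26948 to 29665 CPM in tumour CD71- down to 13719 to 14338 CPM in tumour CD71+, and from 9427 to 9918 CPM down to 4027 to 5101 CPM in culture. Mitochondrially encoded genes took 7.09% and 12.002% of counts in culture CD71-, 1.45% and 2.17% in culture CD71+, and 0.202% to 1.04% in the tumour. Of 9 erythroid genes, Hbb-bt, Hba-a1 and Hba-a2 were at 0 in every library, while Hbb-bs and Alas2 had counts in both tumour groups and none in culture. The 9 summed to 0.356 to 0.545 CPM in culture CD71- and 0.277 to 0.305 CPM in culture CD71+. In the tumour they summed to 0.278 to 0.419 CPM in CD71- and 0.942 to 2.79 CPM in CD71+. The 1 erythroid gene tested was called higher in the tumour in CD71+ and not in CD71-. Markers of other cells also differed between origins. In CD71-, 5 of 6 glioma and neural genes tested were higher in the tumour, and 4 of 7 endothelial and stromal genes. So were 5 of 8 microglial and 6 of 9 macrophage genes, with 0, 0, 1 and 1 lower in the same order. In CD71+ these counts were 5, 6, 8 and 7 higher, and 0, 1, 0 and 0 lower. Over all genes, 30.3% were higher in each label, and 36.8% (CD71-) and 27.6% (CD71+) lower. The part of other cells in the results below was not tested, and in such bulk libraries fewer cells of a type and less RNA per cell cannot be told apart.

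Read per length (RPKM, CPM per kilobase of exon), the set had a different order in culture and tumour. In culture CD71- the highest members were Bnip3 at a mean of 225 RPKM, Mif at 214, Bhlhe40 at 159, Fam162a at 148 and Bnip3l at 138 RPKM. In tumour CD71- they were Plaur at 1279 RPKM, Hilpda at 702, Bhlhe40 at 407, Ddit4 at 129 and P4ha1 at 122 RPKM. The same 5 genes in the same order led in tumour CD71+. At the low end, Lox, Loxl2, Stc1 and Car12 lay below 0.1 RPKM in both culture groups.

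**Figure D1:**
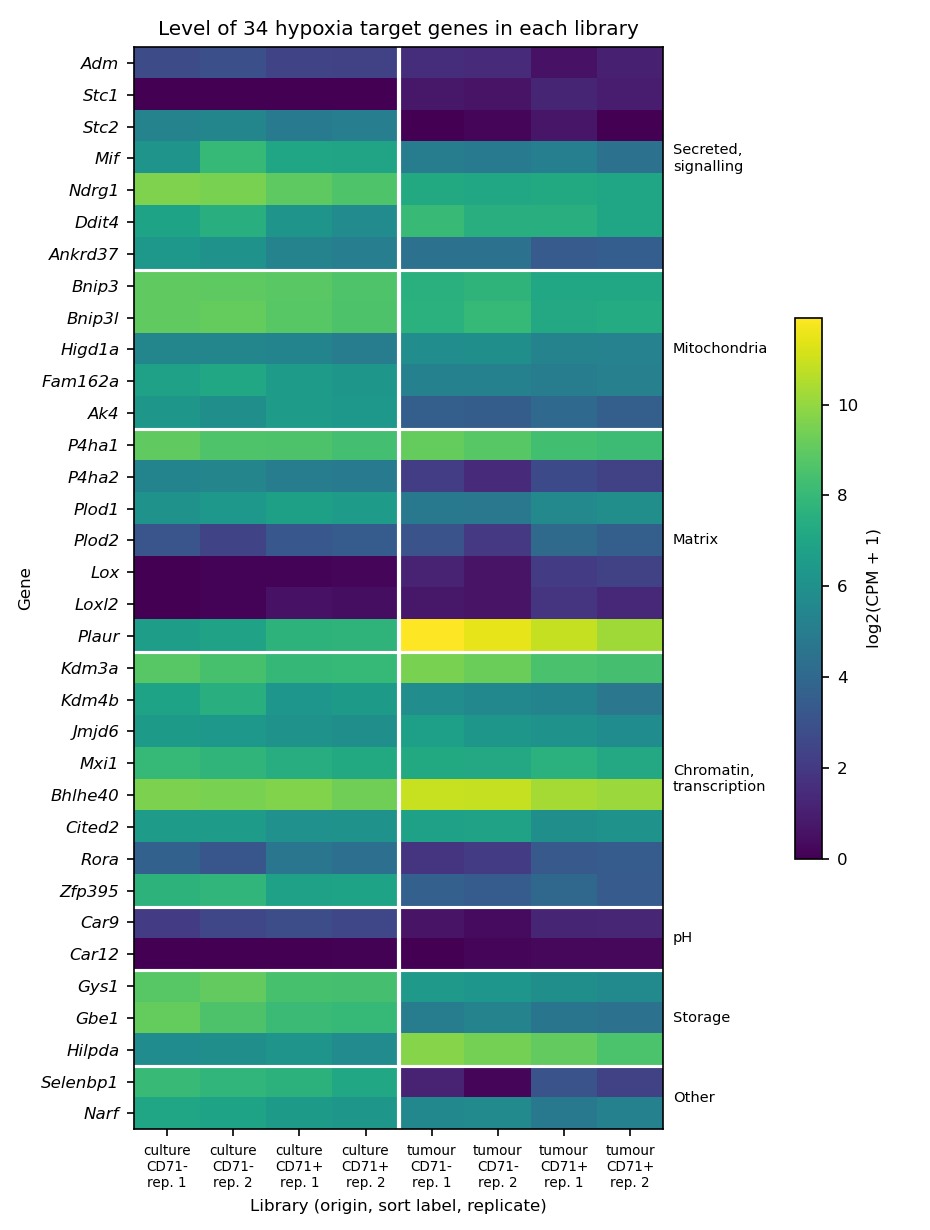
Level of the 34 genes (rows, by role) in each of the 8 libraries (columns) as log2(CPM + 1), from dark (0) to yellow. Plaur and Hilpda are brighter in all 4 tumour columns than in any culture column, and Ndrg1, Gys1, Gbe1 and Selenbp1 are brighter in all 4 culture columns than in any tumour column.

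Neutrophils from tumours and from cultures differed at most of these genes, and more of them were lower in the tumour. Between the CD71- groups, 20 of the 33 genes (60.6%) were lower in the tumour, where 36.8% of all 15975 genes were, and 7 (21.2%) were higher, where 30.3% of all genes were. Between the CD71+ groups, 19 (57.6%) were lower, against 27.6% of all genes, and 8 (24.2%) were higher, against 30.3%. The median log2 fold change of the 33 was -1.37 in CD71- and -1.32 in CD71+, beside -0.28 and -0.08 over all genes tested. The call was the same in both comparisons for 31 of the 33 genes. Of these, 19 were lower in both, 7 were higher in both, and 5 (P4ha1, Plod2, Higd1a, Cited2 and Jmjd6) were called in neither. The 2 comparisons use different libraries, but they share the scaling, the estimate of spread and the contrast of tumour with culture. Their agreement is therefore not independent support, and the share of all genes that agreed was not counted. Mxi1 was lower in the tumour among CD71- cells alone, and Ddit4 was higher in the tumour among CD71+ cells alone. These 2 differences between the sort labels belong to the difference of the label effects given below, which was called for Mxi1 and not for Ddit4.

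**Figure D2:**
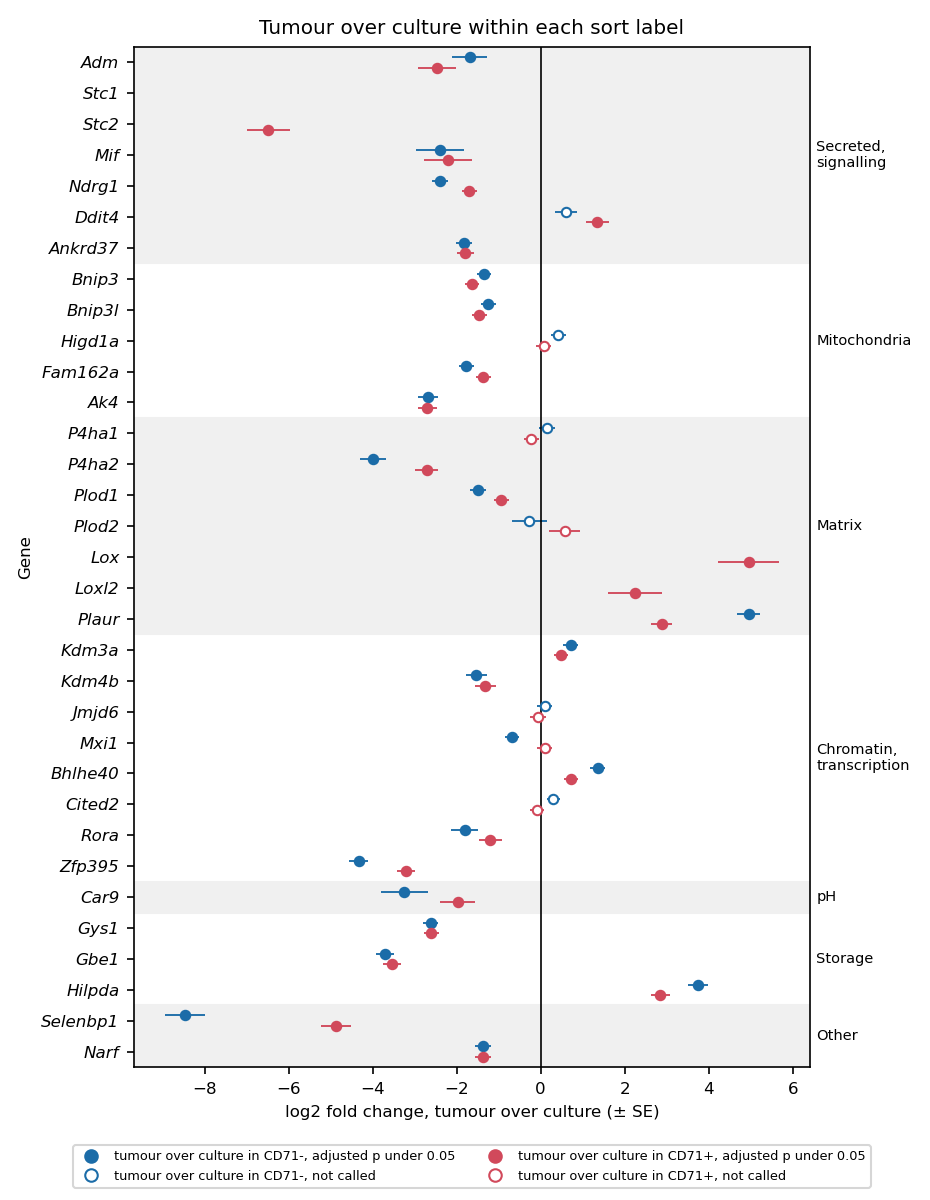
Log2 fold change of tumour over culture (x axis, ± SE) for the 33 tested genes by role, within CD71- (blue) and CD71+ (red). Filled points passed an adjusted p of 0.05, and points resting on a group with 3 or fewer counts are not drawn. Selenbp1 lies at -8.47 in CD71- and -4.88 in CD71+ on the culture side, Stc2 at -6.49 in CD71+, and Plaur lies at 4.95 and 2.88 on the tumour side.

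Of the falls, 18 held in both labels under each of 3 other scalings and with any 1 library left out. The exceptions were Mif, given below, and Mxi1, whose call in CD71- ended without either tumour CD71- library. For the rises in the tumour, the other scalings are not a like test. Total counts and mature neutrophil scaling move tumour over culture down for all genes nearly alike. Under these, falls could hardly be lost and modest rises easily could. For Bnip3 in CD71-, a log2 value of -1.34 lay between -2.57 and -1.10 under the 3 other scalings. The share of all genes that held was not counted. Hilpda, Plaur and Lox held in both labels under each of the same settings, whereas Kdm3a, Bhlhe40 and Loxl2 in both labels, and Ddit4 in CD71+, lost their calls when libraries were scaled to the 20 mature neutrophil genes, with Ddit4 at 0.07 and Kdm3a at -0.48 in CD71- and -0.82 in CD71+ on that scale. The call of Loxl2 also ended without 2 single libraries in CD71- and 3 in CD71+, with adjusted p up to 0.106 and 0.14. Without culture CD71+ replicate 2, 5 genes were higher in the tumour among CD71+ cells, not 8.

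Fewer of these genes passed between the CD71 labels. In the tumour, 14 of 33 (42.4%) were lower in the libraries labelled CD71+, against 17.3% of all genes, and 6 (18.2%) were higher, against 26.2%. In culture, 10 (30.3%) were lower, against 8.36% of all genes, and 2 (6.06%) were higher, against 7.88%. The 5 genes lower in both origins were Ankrd37, Kdm3a, Narf, Gys1 and Gbe1. Rora was higher in both, Plaur was lower in the tumour and higher in culture, and 8 genes were called in neither origin. The share of all genes called alike in both origins, or in neither, was not counted, so these overlaps only describe the set. The median log2 fold change was -0.51 in the tumour and -0.42 in culture, beside 0.13 and 0.03 over all genes tested.

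**Figure D3:**
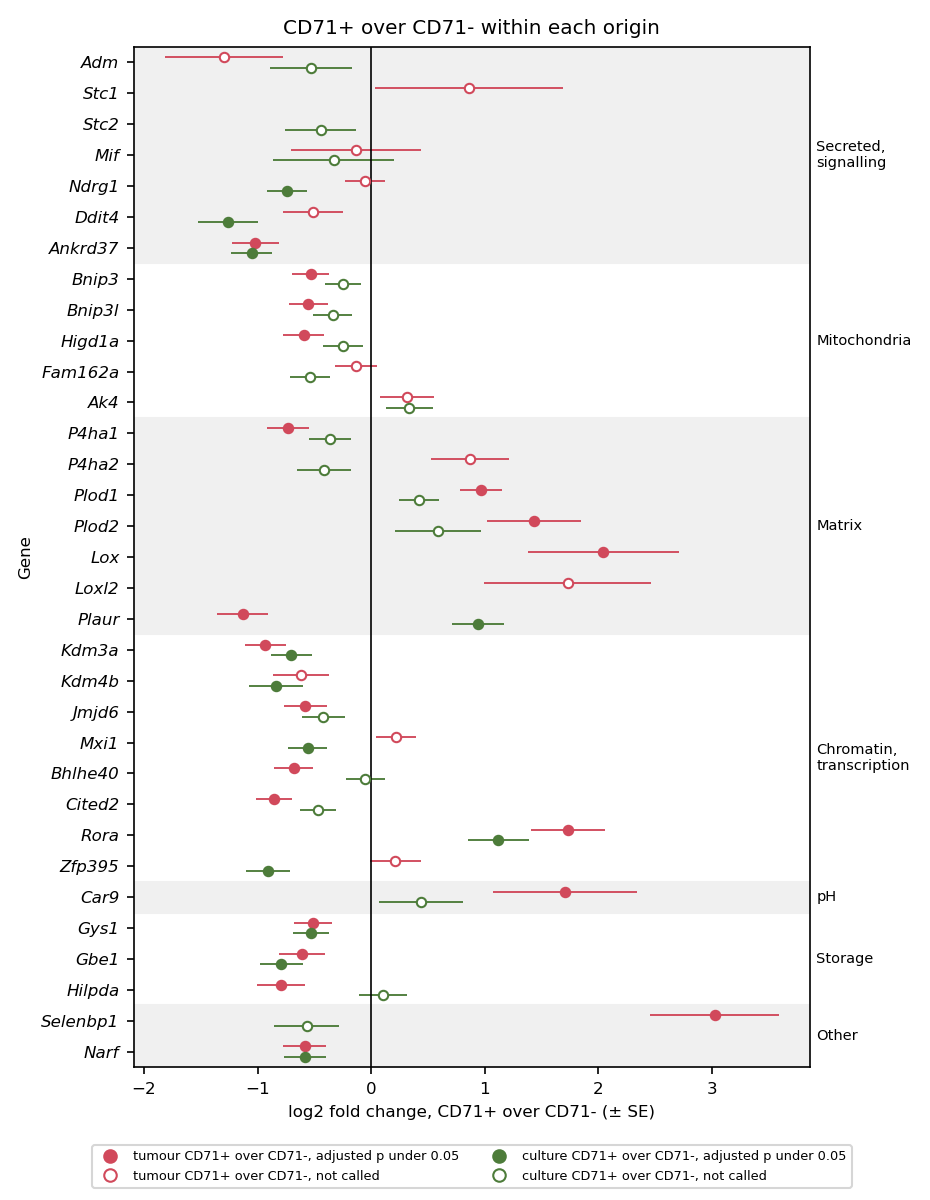
Log2 fold change of CD71+ over CD71- (x axis, ± SE) for the tested genes by role, in the tumour (red) and in culture (green), with filled points for an adjusted p under 0.05. Values resting on 3 or fewer counts in a group are not drawn. Selenbp1 in the tumour lies farthest to the right, at 3.02, and Plaur has its 2 filled points on opposite sides of 0.

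The direction of the label effect for the set as a whole followed the scaling. Under TMM, 6 rose and 14 fell in the tumour, under DESeq2 size factors 5 and 17, under total counts 12 and 1, and under scaling to the 20 mature neutrophil genes 13 and 0, with 0 falls also at an unadjusted p under 0.05. In culture the same 4 scalings gave 2 rises and 10 falls, 2 and 12, 5 and 3, and 13 and 0. None of the 14 falls in the tumour and none of the 10 in culture kept its call under all 3 scalings other than TMM, and those of Ankrd37, Kdm3a and Plaur in the tumour and of Ankrd37 and Ddit4 in culture kept their sign. Since a change of scaling shifts all genes nearly alike, the gap between the set's median and that of all genes is fixed by construction and is no sign of stability. Under TMM it was -0.64 in the tumour and -0.44 in culture. Against the mature neutrophil genes, whose own sums fell as given above, its median rose by 0.39 in the tumour and 0.57 in culture. Single libraries also counted: without tumour CD71+ replicate 2, 6 genes fell with the label in the tumour, and without tumour CD71- replicate 2, 3 rose. In culture, leaving out CD71+ replicate 1 gave 0 rises (3 at an unadjusted p under 0.05) and 3 falls, leaving out CD71+ replicate 2 gave 1 and 1, leaving out culture CD71- replicate 1 gave 1 rise, and leaving out either tumour CD71- library, which changes the shared estimate of spread, gave 6 falls. The calls that held without any 1 library were Selenbp1, Plod1 and Rora among the rises and Ankrd37, Kdm3a, Plaur and Cited2 among the falls, all in the tumour, and none of the 12 in culture did.

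**Figure D4:**
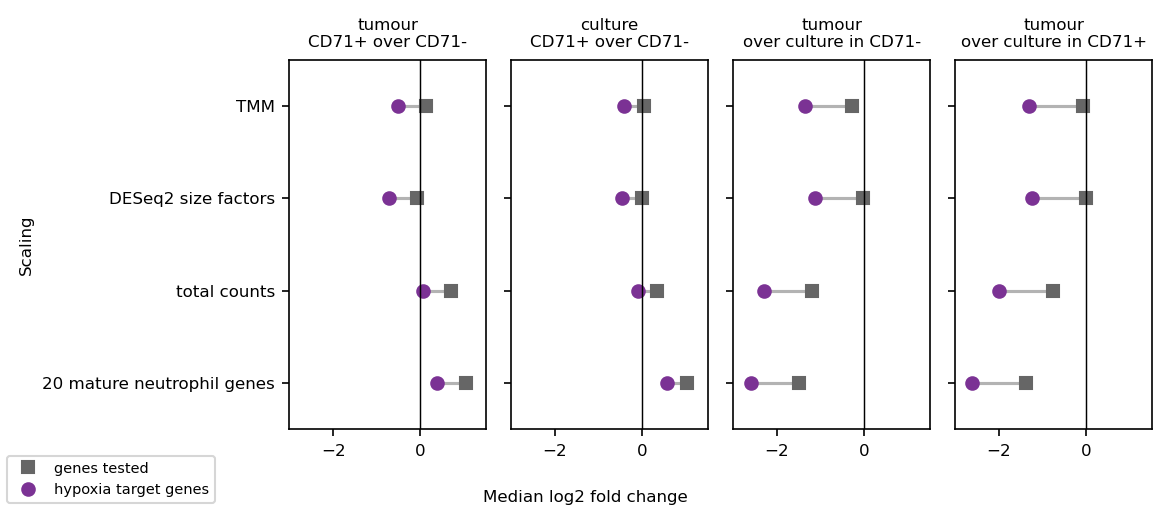
Median log2 fold change (x axis) of the tested hypoxia target genes (purple circles) and of all genes tested (grey squares) in 4 comparisons (panels), under 4 ways of scaling the libraries (rows). For the label in the tumour the median of the set goes from -0.73 under DESeq2 size factors to 0.39 under mature neutrophil scaling, and a change of scaling moves both medians alike by construction.

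Of the 7 matrix genes, 3 were higher and 2 lower in the tumour in each label. Over all genes, 30.3% were higher in each label, and 36.8% (CD71-) and 27.6% (CD71+) lower. Among the matrix genes, Plaur, the receptor of urokinase on the cell surface (ENSMUSG00000046223.10, chr7:24462484-24475968, plus strand, mm10), had the highest level per length of the set in both tumour groups. Plaur ranked 16 in culture CD71- and 7 in culture CD71+. It stood at 3859 and 2833 CPM in tumour CD71-, 1888 and 1169.5 CPM in tumour CD71+, 102 and 114 CPM in culture CD71- and 205 and 211 CPM in culture CD71+. All 4 tumour libraries lay above all 4 culture libraries, and within each origin the labels did not overlap. Plaur was 30.9-fold higher in the tumour among CD71- cells (log2 fold change 4.95 ± 0.26, SE, adjusted p = 2.14e-09) and 7.34-fold higher among CD71+ cells (2.88 ± 0.24, adjusted p = 2.38e-07). With the label it fell in the tumour (-1.13 ± 0.23, adjusted p = 0.00152) and rose in culture (0.94 ± 0.23, adjusted p = 0.0123). The rise in culture was lost without culture CD71- replicate 1 or without either culture CD71+ library, with adjusted p up to 0.0585.

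The collagen prolyl 4-hydroxylases P4ha1 and P4ha2, which hydroxylate proline in collagen, went separate ways. P4ha1 was at 510.3 and 393 CPM in culture CD71-, 381 and 322 in culture CD71+, 555 and 445 in tumour CD71- and 314 and 288 CPM in tumour CD71+, with overlapping origins. It did not pass between origins (adjusted p = 0.495 in CD71- and 0.318 in CD71+) and fell with the label in the tumour (log2 fold change -0.73 ± 0.19, adjusted p = 0.00642). P4ha2 was at 40.9 and 41.7 CPM and 32.4 and 29.5 CPM in the culture groups and at 3.5 and 1.67 CPM and 5.49 and 3.96 CPM in the tumour groups, in the same order of labels. It was 15.97-fold lower in the tumour in CD71- and 6.55-fold lower in CD71+ (adjusted p = 8.28e-08 and 1.67e-06).

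The lysyl hydroxylases Plod1 and Plod2, which prepare collagen lysines for cross-links, rose with the label in the tumour. Plod1 went from 27.3 and 26.6 CPM in tumour CD71- to 47.00 and 58.3 CPM in tumour CD71+ (log2 fold change 0.97 ± 0.19, adjusted p = 0.00118), and was at 69.1 and 81.97 CPM and 107 and 94.8 CPM in the culture groups. Every culture library lay above every tumour library, and Plod1 was lower in the tumour in both labels (-1.49 ± 0.19 and -0.94 ± 0.18). Plod2 went from 7.27 and 2.91 CPM to 16.3 and 11.2 CPM in the tumour (1.43 ± 0.41, adjusted p = 0.0134, and 2.08 without tumour CD71- replicate 1), a call that ended without tumour CD71+ replicate 1 and, separately, without tumour CD71- replicate 2. Of the stromal collagen genes, Col1a2 was at 7.27 and 3.33 CPM in tumour CD71- and 38.1 and 12.9 CPM in tumour CD71+, and Col1a1 at 35.9 and 19.98 CPM and 66.3 and 20.1 CPM, so the labels overlapped closely for Col1a1 and not for Col1a2. Their part in the rise of the matrix enzymes was not tested.

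Lox and Loxl2, secreted oxidases that cross-link collagen and elastin, were nearly absent from culture. Lox had counts of 0 and 1 in culture CD71-, 3 and 4 in culture CD71+, 9 and 4 in tumour CD71- and 35 and 44 in tumour CD71+. Its level rose with the label in the tumour from 1.26 and 0.555 CPM to 3.37 and 4.15 CPM (log2 fold change 2.04 ± 0.66, adjusted p = 0.0235), a call that ended without any 1 of 3 of the 4 tumour libraries. Loxl2 had counts of 0 and 1, 16 and 11, 5 and 4 and 27 and 17 in the same order of groups. The summed counts of Lox in CD71- were 13 in the tumour and 1 in culture, a ratio of 25.2 after scaling (95% exact interval 3.79 to 1073), and for Loxl2 they were 9 and 1, a ratio of 17.5 (2.42 to 766). With 1 library left out, the fitted log2 value in CD71- went from 3.20 to 6.87 for Lox and from 2.67 to 6.35 for Loxl2, the ends being without culture CD71- replicate 1 and replicate 2. Intervals on summed counts cover counting error only.

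The storage genes serve glycogen or lipid. Gys1, glycogen synthase (ENSMUSG00000003865.16, chr7:45434844-45456619, plus strand), was at 457 and 524 CPM in culture CD71-, 344 and 335 in culture CD71+, 83.3 and 76.5 in tumour CD71- and 60.6 and 51.3 CPM in tumour CD71+. Gbe1, the enzyme that branches glycogen (ENSMUSG00000022707.16, chr16:70313949-70569716, plus strand), was at 539.8 and 379 CPM, 279.7 and 251 CPM, 31.3 and 38.9 CPM and 24.2 and 21.8 CPM in the same order. For both, every culture library lay far above every tumour library, and within each origin the CD71+ libraries lay below the CD71- libraries. Gys1 was 6.13-fold lower in the tumour in CD71- and 6.06-fold lower in CD71+ (log2 fold changes -2.62 ± 0.17 and -2.60 ± 0.17, SE). Gbe1 was 13.1-fold and 11.6-fold lower (adjusted p = 3.97e-09 and 8.78e-09). With the label both fell in each origin, Gys1 by 1.43-fold in the tumour and 1.45-fold in culture, and Gbe1 by 1.53-fold and 1.73-fold, with adjusted p from 0.0118 to 0.0378, and each of these 4 calls ended when some 1 library was left out.

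Hilpda, a lipid droplet protein that restrains the breakdown of stored fat (ENSMUSG00000043421.8, chr6:29272488-29275446, plus strand), had the opposite pattern between origins. It was at 55.2 and 60.00 CPM in culture CD71-, 71.5 and 52.5 in culture CD71+, 860.4 and 688 in tumour CD71- and 525 and 367 CPM in tumour CD71+. The lowest tumour library lay above the highest culture library by more than the spread within any group. Hilpda was 13.4-fold higher in the tumour in CD71- (log2 fold change 3.75 ± 0.23, adjusted p = 9.7e-09) and 7.19-fold higher in CD71+ (2.85 ± 0.22, adjusted p = 1.34e-07). It fell with the label in the tumour (-0.80 ± 0.21, adjusted p = 0.00799, and 0.0933 without tumour CD71+ replicate 2), while the culture groups overlapped.

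Among the mitochondrial genes, 4 of 5 were lower in the tumour in both labels, where 36.8% (CD71-) and 27.6% (CD71+) of all genes were. Bnip3, an outer membrane receptor that marks mitochondria for removal by autophagy, was at 516 and 503 CPM in culture CD71-, 465 and 394 in culture CD71+, 188 and 214 in tumour CD71- and 140.2 and 138 CPM in tumour CD71+. Bnip3l, its close relative with the same role, was at 509 and 555, 456 and 384, 197 and 251 and 146 and 159.6 CPM in the same order. For both, every culture library lay above every tumour library. The fall was 2.54-fold for Bnip3 and 2.38-fold for Bnip3l in CD71-, and 3.09-fold and 2.75-fold in CD71+. Ak4, an adenylate kinase of the mitochondrial matrix, went from 78.5 and 59.4 CPM and 94.2 and 80.2 CPM in culture to 11.05 and 10.5 CPM and 15.9 and 11.03 CPM in the tumour, a 6.39-fold and 6.48-fold fall. Fam162a, a mitochondrial protein linked to cell death under hypoxia, was at 113 and 139 CPM and 96.04 and 77.4 CPM in culture and 37.1 and 36.9 CPM and 32.4 and 35.1 CPM in the tumour, and was lower there by 3.41-fold and 2.57-fold. Higd1a, an inner membrane protein of the respiratory chain, was at 43.2 and 42.8 CPM, 40.6 and 31.97 CPM, 56.1 and 59.3 CPM and 39.01 and 37.4 CPM and passed in neither. Under total counts and under scaling to mature neutrophil genes its sign turned, to -0.50 and -0.80 in CD71-. With the label, Bnip3, Bnip3l and Higd1a fell in the tumour by 1.45-fold, 1.47-fold and 1.51-fold, calls that ended without either tumour CD71+ library and, for Bnip3 and Bnip3l, without tumour CD71- replicate 2. In culture 0 of the 5 passed in edgeR, with 1, Fam162a, at an unadjusted p under 0.05 and 1 in DESeq2.

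Of the 7 secreted and signalling genes, 5 were lower in the tumour in both labels, where 36.8% (CD71-) and 27.6% (CD71+) of all genes were. Ndrg1, a stress-induced cytoplasmic protein (ENSMUSG00000005125.13, chr15:66929318-66969640, minus strand), was at 784 and 722 CPM in culture CD71-, 505 and 396 in culture CD71+, 149 and 138 in tumour CD71- and 152 and 126 CPM in tumour CD71+. It was 5.25-fold lower in the tumour in CD71- and 3.25-fold lower in CD71+, and it fell with the label in culture (-0.74 ± 0.18, adjusted p = 0.0108, and 0.191 without culture CD71+ replicate 2). Ankrd37, an ankyrin repeat protein, was at 81.1 and 67.7, 38.8 and 32.9, 20.8 and 21.1 and 9.82 and 10.8 CPM in the same order. No 2 of these groups overlapped, and Ankrd37 fell with the label by nearly the same amount in the tumour (-1.02 ± 0.21) and in culture (-1.05 ± 0.18), with a difference of 0.03 ± 0.28. Adm, a peptide that widens blood vessels, was low throughout, at 5.69 and 6.54 CPM, 4.37 and 4.08 CPM, 1.96 and 1.8 CPM and 0.482 and 1.04 CPM. It was lower in the tumour in both labels (-1.69 ± 0.42 and -2.46 ± 0.45, the latter -3.16 without tumour CD71+ replicate 2).

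Ddit4, an inhibitor of the growth kinase mTORC1, was at 117 and 181 CPM in culture CD71-, 71.2 and 52.9 in culture CD71+, 273 and 179 in tumour CD71- and 183 and 133 CPM in tumour CD71+. The culture CD71+ libraries lay below all others, and the label effect in culture was -1.26 ± 0.26 (adjusted p = 0.00696, and 0.0717 without culture CD71+ replicate 2). Mif, a cytokine, differed widely between the culture CD71- replicates, with 71.05 and 248 CPM in the culture CD71- libraries, 129.5 and 124 in culture CD71+, 31.6 and 28.7 in tumour CD71- and 34.6 and 20.5 CPM in tumour CD71+. Its fall in the tumour passed in both labels (-2.40 ± 0.58 and -2.20 ± 0.57, adjusted p = 0.00883 and 0.0141), was -3.05 and -1.26 in CD71- without culture CD71- replicate 1 and 2, and ended without either tumour library in CD71-, with adjusted p up to 0.0615, and without 3 of the 4 libraries compared in CD71+, with adjusted p up to 0.0851.

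The stanniocalcins, secreted glycoproteins tied to calcium and phosphate handling, had opposite patterns between origins. Stc2 had counts of 671 and 480 in culture CD71- and 913 and 964 in culture CD71+, and of 0 and 1 in tumour CD71- and 7 and 0 in tumour CD71+. Its level in culture CD71- was 39.8 and 43.6 CPM, 593 times that in tumour CD71- by summed counts (95% exact interval 106 to 23436). In CD71+ its fitted log2 change was -6.49 ± 0.52, and -11.97 and -5.54 without tumour CD71+ replicate 1 and 2. Stc1 had counts of 0 and 0 and 1 and 0 in the culture groups and of 5 and 4 and 14 and 10 in the tumour groups. In CD71- it was at least 2.79-fold higher in the tumour, against a floor of 3 counts in each culture library, and in CD71+ the ratio was 70.5 (11.5 to 2898). The call of Stc1 in CD71- ended without culture CD71- replicate 1 (adjusted p = 0.0576).

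The chromatin and transcription genes divided by member. Of the 8, 2 were higher and 4 lower in the tumour in CD71-, and 2 higher and 3 lower in CD71+. Over all genes, 30.3% were higher in each label, and 36.8% (CD71-) and 27.6% (CD71+) lower. Kdm3a, a histone demethylase that needs oxygen (ENSMUSG00000053470.13, chr6:71588972-71632990, minus strand), was at 457 and 348 CPM in culture CD71-, 243 and 251 in culture CD71+, 726 and 595 in tumour CD71- and 356 and 336 CPM in tumour CD71+. It fell with the label in the tumour (-0.93 ± 0.18, adjusted p = 0.00114) and in culture (-0.70 ± 0.18, adjusted p = 0.0157, and up to 0.158 with 1 library left out). Kdm4b, another histone demethylase of the same oxygen-dependent class, was at 117 and 177, 76.04 and 88.8, 55.6 and 45.9 and 40.6 and 25.5 CPM and was lower in the tumour in both labels (-1.53 ± 0.25 and -1.32 ± 0.24). It also fell with the label in culture (-0.84 ± 0.24, adjusted p = 0.0287, and up to 0.236 with 1 library left out). Every tumour library lay below every culture library for Kdm4b. Kdm3a, in contrast, was higher in the tumour under TMM (0.71 ± 0.18 and 0.48 ± 0.18) with the reversal under other scalings given above. In CD71+ its call also ended without any 1 of the 4 libraries compared, with log2 values of 0.42 to 0.50 when 1 library was left out.

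Bhlhe40, a transcriptional repressor, was at 756 and 743 CPM in culture CD71-, 803 and 644 in culture CD71+, 1935 and 1897 in tumour CD71- and 1265 and 1123 CPM in tumour CD71+. It was 2.56-fold higher in the tumour in CD71- and 1.65-fold higher in CD71+ (adjusted p = 1.11e-05 and 0.00251, the second 0.0758 without culture CD71+ replicate 2), and under scaling to mature neutrophil genes the value in CD71+ was -0.56. Zfp395, a zinc finger protein, went the other way, at 205 and 229, 112 and 119, 11.6 and 9.99 and 15.2 and 9.8 CPM. It was 20.1-fold lower in the tumour in CD71- (adjusted p = 1.7e-09) and 9.25-fold lower in CD71+. In culture it fell with the label (-0.91 ± 0.19, adjusted p = 0.0055, and 0.0817 without culture CD71+ replicate 1).

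Rora, a nuclear receptor (ENSMUSG00000032238.17, chr9:68653786-69388246, plus strand), rose with the label in both origins. It went from 2.52 and 3.19 CPM to 9.15 and 9.9 CPM in the tumour (1.74 ± 0.33, adjusted p = 0.00102) and from 11.9 and 8.08 CPM to 24.3 and 19.3 CPM in culture (1.12 ± 0.27, adjusted p = 0.0113, and 0.187 without culture CD71+ replicate 1). The labels did not overlap in either origin. Cited2, which limits hypoxia-inducible factors by binding their coactivators, went from 112 and 115 CPM to 60.01 and 65.6 CPM in the tumour (-0.85 ± 0.16, adjusted p = 0.000946) and from 91.6 and 92.96 CPM to 64.3 and 69.1 CPM in culture (adjusted p = 0.0559). Jmjd6, an oxygenase of the Jumonji family, went from 104 and 78.8 CPM to 67.5 and 54.4 CPM and fell with the label in the tumour (-0.58 ± 0.19, adjusted p = 0.0236, and up to 0.165 with 1 library left out). Mxi1, an antagonist of Myc, was at 249 and 222, 169 and 151, 149.6 and 144 and 195 and 147 CPM and fell with the label in culture alone (-0.56 ± 0.17, adjusted p = 0.0412). That call ended under total counts and under mature neutrophil scaling, with a log2 value of 0.43 under the second. It also ended without some single libraries, with log2 values of -0.63 to -0.45 when 1 library was left out.

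Selenbp1, a selenium-binding enzyme that oxidises methanethiol (ENSMUSG00000068874.13, chr3:94933056-94944758, plus strand), had the largest fitted change of the set among genes with more than 3 counts in each group. It was at 272 and 227 CPM in culture CD71-, 198 and 138 in culture CD71+, 1.26 and 0.139 in tumour CD71- and 7.32 and 4.15 CPM in tumour CD71+. The tumour CD71- values rest on counts of 9 and 1. It was 355-fold lower in the tumour in CD71- (log2 fold change -8.47 ± 0.48, adjusted p = 2.72e-08) and 29.4-fold lower in CD71+ (-4.88 ± 0.35, adjusted p = 3.42e-07), and it rose with the label in the tumour (3.02 ± 0.57, adjusted p = 0.00152). Without tumour CD71- replicate 1 the first of these log2 values was -10.58 and the rise 5.15, and without tumour CD71- replicate 2 they were -7.50 and 2.07. Narf, a nuclear protein that binds prelamin A, was at 132 and 118, 89.6 and 77.5, 45.9 and 50.9 and 27.3 and 37.2 CPM, lower in the tumour and lower in CD71+ within each origin. The label calls of Narf ended with 1 library left out, at adjusted p up to 0.206 in the tumour and 0.361 in culture.

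Car9, a carbonic anhydrase at the cell surface that helps control acid balance, was low in every group. It was at 3.32 and 4.81 CPM in culture CD71-, 6.08 and 4.84 in culture CD71+, 0.559 and 0.278 in tumour CD71- and 1.35 and 1.41 CPM in tumour CD71+, the tumour CD71- values being counts of 4 and 2. Car9 was lower in the tumour in both labels (-3.25 ± 0.56 and -1.98 ± 0.42, adjusted p = 0.000167 and 0.00115). Its rise with the label in the tumour (1.71 ± 0.63, adjusted p = 0.0425) ended without any 1 of the 4 tumour libraries or either culture CD71+ library, at adjusted p up to 0.268.

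Ratios within pairs of related genes do not depend on how libraries are scaled. Per exon length, the ratio of Bnip3 to Bnip3l was 1.545 to 1.75 in the 4 culture libraries and 1.455 to 1.64 in the 4 tumour libraries, ranges that overlap. The ratio of P4ha1 to P4ha2 was 14.3 to 18.9 in culture, 241 and 405 in tumour CD71-, and 86.9 and 110.5 in tumour CD71+, with no overlap between origins or between the tumour labels. For the demethylases Kdm3a and Kdm4b it was 1.17 to 2.31 in culture and 5.205 to 7.84 in the tumour, with no overlap. Plod1 to Plod2 gave 7.09 to 15.0 in culture and 2.30 to 7.29 in the tumour, ranges that overlap. A ratio shows unequal change and not which gene of a pair moved.

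**Figure D5:**
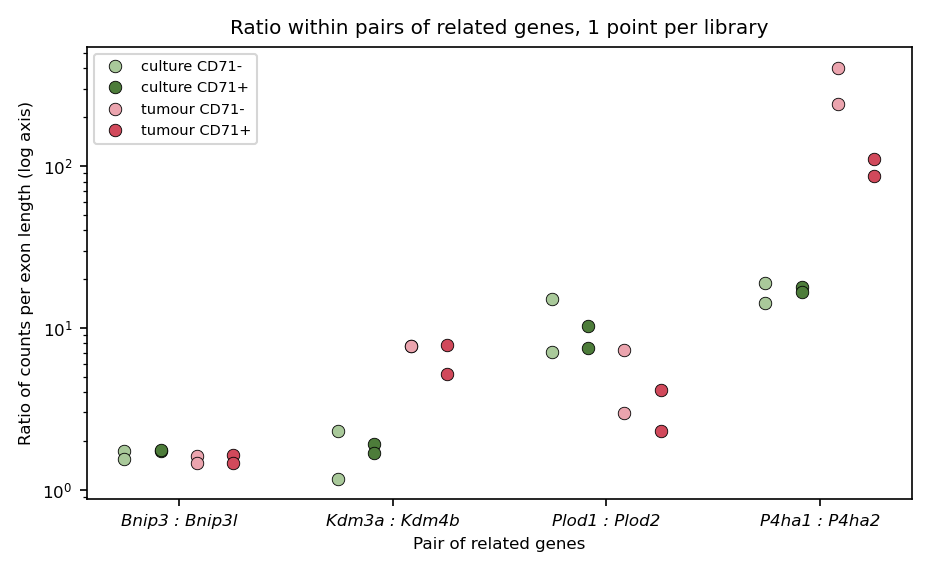
Ratio of counts per exon length within 4 pairs of related genes (x axis), on a log axis, 1 point per library coloured by group. The Bnip3 to Bnip3l ratio stays at 1.455 to 1.75 in all 8 libraries, and the P4ha1 to P4ha2 ratio goes from 14.3 to 18.9 in culture to 86.9 to 405 in the tumour.

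Whether the label effect differed between origins was tested as an interaction, and 4 of 33 genes passed. Of the 4, 3 (9.09%) had a higher effect in the tumour, against 10.8% of all genes, and 1 (3.03%) a lower one, against 4.71%, so the shares lay near those of all genes. Plaur differed by -2.07 ± 0.32 (log2, SE, adjusted p = 0.00136), since it fell with the label in the tumour and rose in culture. Selenbp1 differed by 3.59 ± 0.64 (adjusted p = 0.00427, and 5.72 or 2.64 without tumour CD71- replicate 1 or 2), Zfp395 by 1.12 ± 0.29 (adjusted p = 0.0216) and Mxi1 by 0.78 ± 0.25 (adjusted p = 0.0467). The calls of Plaur and Selenbp1 held under each of 3 other scalings and without any 1 library, and those of Zfp395 and Mxi1 did not, ending without 5 and 6 of the 8 libraries in turn. With a single library left out, the count of higher effects was 1 without either culture CD71+ library, without tumour CD71- replicate 2 and also without tumour CD71+ replicate 1, it was 5 without tumour CD71+ replicate 2, and the count of lower effects was 2 without culture CD71+ replicate 2 and without tumour CD71+ replicate 1.

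Genes that control the pathway were called between origins at shares near those of all genes in CD71-. Of 14 genes for subunits of hypoxia-inducible factors and for oxygen sensing, 4 were higher and 6 lower in the tumour in each label, where 30.3% of all genes were higher in each label and 36.8% (CD71-) and 27.6% (CD71+) lower. Hif1a was at 139 and 118 CPM in culture CD71-, 149 and 122 in culture CD71+, 892 and 909 in tumour CD71- and 725 and 706 CPM in tumour CD71+, 7.01-fold and 5.29-fold higher in the tumour. Egln1, the main prolyl hydroxylase, was 7.48-fold and 5.76-fold lower there, and Hif3a went from 95.7 and 84.6 CPM and 77.9 and 79.00 CPM in culture to 0.699 and 0.139 CPM and 0.771 and 2.64 CPM in the tumour. With the label, 3 of the 14 rose in the tumour (Epas1, Hif3a and Rbx1) and 3 fell (Arnt, Egln3 and Eloc). In culture 0 passed in edgeR (1, Arnt, at an unadjusted p under 0.05, and 1 fall in DESeq2). Over all genes, 26.2% rose and 17.3% fell in the tumour, and 7.88% and 8.36% in culture, so these counts lay near those shares. The rise of Hif3a rests on counts of 5 and 1 in tumour CD71- and 8 and 28 in tumour CD71+.

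The 17 glycolytic and vascular targets of the same factors, set beside the 34 genes, had medians near those of the set for the label and not for the origin. With the label 8 of 17 fell in the tumour and 5 in culture, where 17.3% and 8.36% of all genes did, with medians of -0.50 and -0.41. Of the 17, 0 rose in edgeR, in DESeq2 or at an unadjusted p under 0.05. Over all genes, 26.2% rose in the tumour and 7.88% in culture. The direction of the label effect followed the scaling for the 34 genes. Values under total counts and mature neutrophil scaling are not given for these 17. Between origins their medians were 0.06 in CD71- and -0.11 in CD71+, with 6 higher and 6 lower in CD71- and 5 higher and 8 lower in CD71+. In CD71- these counts lie near the shares over all genes, 30.3% higher and 36.8% lower, and in CD71+ those shares were 30.3% and 27.6%. The 33 genes had medians of -1.37 and -1.32. Slc2a1, the main glucose transporter, was at 542 and 557 CPM in culture CD71- and 2153 and 1741 CPM in tumour CD71-, 3.54-fold higher in the tumour, and Pfkfb3, which raises flux through glycolysis, was 5.27-fold higher. Pdk1, which holds pyruvate out of mitochondria, was 5.21-fold lower in the same comparison, and Vegfa, the vascular growth factor, was at 994 and 1226 CPM and 1477 and 1002 CPM (adjusted p = 0.531).

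Exons of 15 of the 34 genes overlap a gene on the opposite strand, and those of 2 overlap one on the same strand. The share of exon bases involved was 26.4% for Ankrd37, 22.5% for Higd1a, 22.3% for Bnip3 and 19.8% for Fam162a, and 9.3% or less for the others. The strand setting of the counting was not given in the sources used here, so counts of these genes are uncertain to that extent.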

How the data were processed

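Gene expression was measured by RNA-seq in 8 libraries. Per the labels' protocols, RNA came from a Quick-RNA Microprep kit (Zymo), and the Illumina Stranded Total RNA kit with Ribo-Zero Plus gave the libraries. Per the submitters' processing notes, FastQC, cutadapt, STAR, featureCounts, DESeq2 and mm10 were used. Their versions are not given in the sources used here. Values deposited by the authors are raw counts per gene. From these, 15975 of 55450 genes were kept by edgeR's expression filter, scaled by TMM and fitted in edgeR 4.0.16 (R 4.3.3, limma 3.58.1) with its robust quasi-likelihood test on 4 group means and 4 residual degrees of freedom. P-values were Benjamini-Hochberg adjusted over all genes tested, and a gene was called under 0.05. Exon lengths came from GENCODE M21 and promoter sequences from RefSeq on GRCm38.p6. The scripts were tested on simulated data.

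Values in every library were given for up to 5 rises and 5 falls per comparison with a mean of at least 5 CPM, and for paralog pairs. The members and lists were chosen with earlier results of these data known. Alternatives were 3 other scalings, 2 other filters, DESeq2 1.42.0, a replicate block, fits within 1 origin, a fold of at least 2 and leaving out each library.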

Additional observations from a re-analysis of the deposited data

Results flagged for a closer look

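The difference of the CD71 label effects, tumour minus culture, passed the interaction test for 4 genes (edgeR, adjusted over all genes tested). It was 3.59 (log2, SE 0.64, adjusted p = 0.00427) for Selenbp1, -2.07 (SE 0.32, adjusted p = 0.00136) for Plaur, 1.12 (SE 0.29, adjusted p = 0.0216) for Zfp395 and 0.78 (SE 0.25, adjusted p = 0.0467) for Mxi1. Selenbp1 rests on few counts in tumour CD71-, and its value was 5.72 without tumour CD71- replicate 1 and 2.64 without replicate 2.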

How the results depend on the processing

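The counts of genes lower in tumour than in culture stayed within 1.5 times under each alternative. Total counts and mature neutrophil scaling move these values down for all genes nearly alike, so they could hardly reduce these counts. In the tumour, total counts gave 12 higher and 1 lower with the label, scaling to mature neutrophil genes 13 and 0 (0 falls also at an unadjusted p under 0.05), and a fold of at least 2 left 2 lower. In culture the same settings gave 5 and 3, 13 and 0, and 1 and 2. Scaling to mature neutrophil genes gave 4 genes higher in the tumour in each label. For the difference of the label effects, total counts gave 7 higher, mature neutrophil scaling 1 higher, and DESeq2 size factors, no filter and DESeq2 gave 3, 2 and 3 lower. Leaving out 1 library gave 3 to 6 higher and 6 to 15 lower in the tumour, 0 to 3 and 1 to 9 in culture, 5 to 8 higher in tumour over culture in CD71+, and 1 to 5 higher and 1 to 2 lower for the difference. Where a group then held 1 library, that library was assumed to vary like the other groups.

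The replicate numbers were not treated as pairing, since the labels tie them to nothing and deviations correlated at 0.0120 in culture and 0.0716 in the tumour. With the replicate block the label gave 6 higher and 16 lower in the tumour, 2 and 13 in culture, and 5 and 3 for the difference.

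The sign turned for the following log2 fold changes, and the change of scale is what differs between the settings. With the label in the tumour, total counts gave Gys1 0.046, Ndrg1 0.51, Bnip3l 0.0064 and Bnip3 0.025. Mature neutrophil scaling gave Narf 0.33, Gys1 0.39, Fam162a 0.77, Ndrg1 0.85, P4ha1 0.16, Bnip3l 0.38, Gbe1 0.32, Bhlhe40 0.22, Higd1a 0.32, Cited2 0.055, Hilpda 0.10, Jmjd6 0.31 and Bnip3 0.39. In culture it gave Narf 0.41, Gys1 0.46, Ndrg1 0.24, P4ha1 0.63, Bnip3l 0.64, Gbe1 0.20, Kdm4b 0.16, Mxi1 0.43, Bhlhe40 0.93, Zfp395 0.090, Higd1a 0.73, Kdm3a 0.30 and Bnip3 0.74, and Mif ranged from -0.95 to 0.84 with 1 library left out, the latter without culture CD71- replicate 2 (the cause was not tested). For tumour over culture in CD71-, total counts and mature neutrophil scaling gave P4ha1 -0.79 and -1.04, Higd1a -0.50 and -0.80, Cited2 -0.63 and -0.92, Kdm3a -0.22 and -0.48, and Jmjd6 -0.84 and -1.10. In CD71+ they gave Mxi1 -0.59 and -1.19, Higd1a -0.60 and -1.21, Kdm3a -0.19 and -0.82, and Bhlhe40 -0.56 under the second alone.

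Of all genes called with the label in the tumour, 60.2% were higher under TMM, 47.3% under DESeq2 size factors, 93.3% under total counts and 99.6% under mature neutrophil scaling. In culture these shares were 48.5%, 42.3%, 80.9% and 98.2%, for tumour over culture 45.1%, 52.1%, 25.3% and 20.5% in CD71- and 52.3%, 55.5%, 29.3% and 18.5% in CD71+, and for the difference 69.6%, 52.1%, 87.4% and 69.6%.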
